A study of Mus musculus with 34 samples.

Results

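The iron and heme genes measured here were followed across the muscles of L-arginine-treated and untreated mice. They are Ftl1 (ferritin light chain), Tfrc (transferrin receptor), Slc40a1 (ferroportin) and Hmox1 (heme oxygenase 1). They were chosen by symbol, as the 4 of 637 genes named on both array platforms whose only annotated symbol was one of these. Each platform carried 7 probes for them, 2 each for Ftl1, Tfrc and Slc40a1 and 1 for Hmox1. The choice was made with earlier results of these arrays known. For all 4 genes, those results came from the mdx against BL10 comparison in L-arginine-treated hindlimb, from its difference from the same comparison in treated diaphragm, of which the diaphragm values are a part, and from the treated against untreated comparison in mdx hindlimb. For Ftl1 they also came from treated hindlimb against treated diaphragm and from treated against untreated BL10 hindlimb. Values in these comparisons are given below as a description, with no test. P-values of other comparisons that share arrays with these are not independent of the choice.

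Cells take up iron by binding transferrin at the transferrin receptor, store what they do not use inside ferritin, and release it through ferroportin, the known cellular iron exporter of vertebrates. Heme oxygenase 1 opens the heme ring and frees its iron, and is known as a gene induced by heme and by oxidative stress. Skeletal muscle holds much heme in myoglobin, and macrophages that clear damaged fibres take up and recycle the iron set free there.

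The study hybridised 2-colour arrays of diaphragm or hindlimb muscle from BL10 mice, the control strain, and mdx mice, which lack dystrophin and serve as a model of Duchenne muscular dystrophy. Mice were untreated or treated with L-arginine, the substrate of nitric oxide synthase, and were 3, 5, 9 or 12 weeks old. The 8 groups are untreated BL10 diaphragm, untreated BL10 hindlimb, treated BL10 diaphragm, treated BL10 hindlimb and the same 4 kinds of mdx muscle. Each group had 1 array per age, except that both untreated mdx groups had 2 arrays at 12 weeks, labelled Sample 1 and Sample 2, which gave 18 untreated and 16 treated arrays. The labels do not state the dose or length of treatment, the sex of the mice or whether arrays came from separate animals. P-values therefore measure only the spread left between arrays after group and age, which may be technical. With mostly 1 array per group and age, that spread also holds any group difference that changes with age.

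Each value is a deposited ratio of the 2 channels. From the order of the labels the ratio is likely the muscle of the named age over muscle of the same strain at 12 weeks, so 0 on the log2 scale means equal to the 12-week RNA. The labels do not settle which channel is the numerator, and with the ratio turned every sign below turns. Because each strain was set against RNA of its own strain, an mdx value above a BL10 value is a larger ratio to that strain's own reference, not a higher level of transcript. Differences between muscles, and between treated and untreated arrays, are likewise differences between such ratios and not between levels of transcript. The 12-week arrays name 12-week RNA of the strain in both channels, yet the log2 ratio of Ftl1 ran from -0.23 to 1.01 over the 6 untreated ones and from -0.43 to 1.16 over the 4 treated ones. Untreated and treated muscles were read on different platforms, so treatment and platform cannot be told apart. The treated BL10 hindlimb array at 9 weeks carries mdx in both channel labels and was kept by its title; without it, the mdx minus BL10 difference of Ftl1 in treated hindlimb is 0.85 against 0.88 with it, that of Tfrc 0.43 against 0.49, that of Slc40a1 0.32 against 0.25 and that of Hmox1 0.85 against 0.83.

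The median ratio of an array lay between 0.73 and 1.08 on the untreated arrays and between 0.94 and 1.22 on the treated ones. A ratio of 0 or below has no log and was taken as missing; of 1200 probes, 0 to 225 had such a ratio on an untreated array and 2 to 36 on a treated one. The untreated BL10 arrays at 3 weeks and the untreated BL10 hindlimb array at 12 weeks stood apart, with 168 such values in diaphragm and 225 in hindlimb at 3 weeks and 128 at 12 weeks; the next highest number was 53. In bulk muscle, fewer cells of a type and less RNA per cell cannot be told apart.

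**Figure D1:**
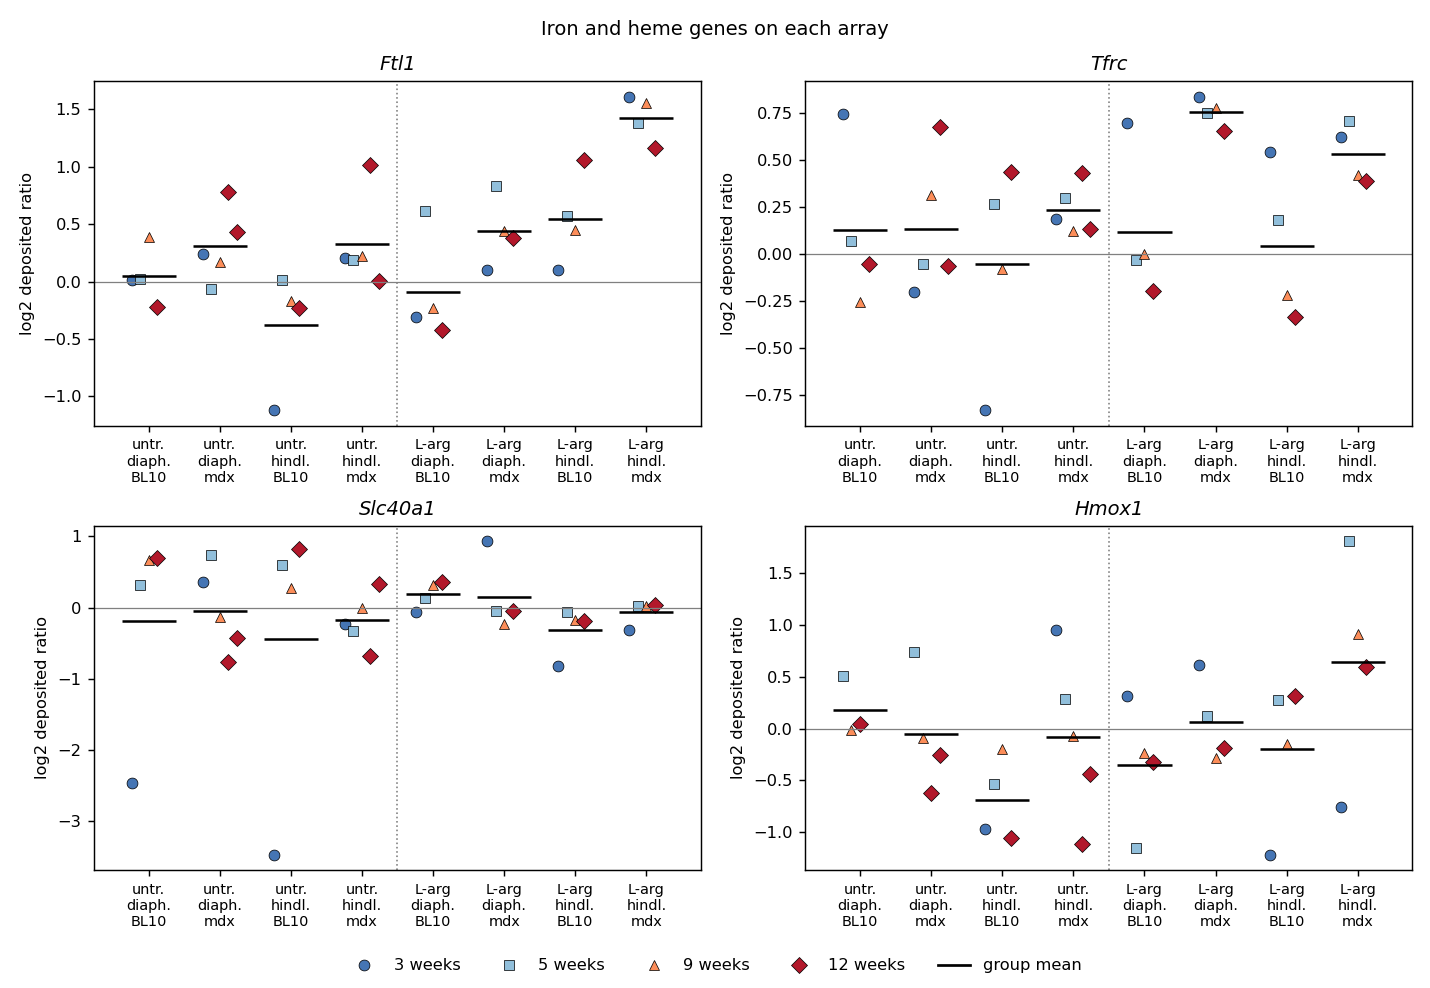
The log2 deposited ratio of each gene (vertical axis) on every array with a value, in the 8 groups (horizontal axis; untreated left and L-arginine right of the dotted line), with marker shape and colour for age and a bar for the group mean. The 4 treated mdx hindlimb arrays of Ftl1 sit between 1.16 and 1.61, and the 2 lowest points of Slc40a1, at -2.47 and -3.47, are untreated BL10 arrays at 3 weeks.

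Ftl1 encodes the light subunit of ferritin, the cage that stores iron. In treated mdx hindlimb its log2 ratio was 1.61 at 3 weeks, 1.38 at 5, 1.56 at 9 and 1.16 at 12 weeks. In treated BL10 hindlimb it was 0.10, 0.57, 0.45 and 1.06 at the same ages. All 4 mdx arrays were above all 4 BL10 arrays. Among the gene averages of the 4 genes this was the only strain comparison, in either muscle or treatment, in which the arrays did not overlap. The mdx mean was 1.43 ± 0.20 (SD, n = 4), the BL10 mean 0.55 ± 0.39 (SD, n = 4), and the fitted difference 0.88 ± 0.24 (SE), a 1.84-fold larger ratio. A feature is a gene, or a probe with no single symbol. Of the 1008 features with at least 3 values in each group, 3.67% had every mdx array above every BL10 array here, beside 3.74% in treated diaphragm, 2.59% in untreated hindlimb and 2.69% in untreated diaphragm. By limma with Benjamini-Hochberg adjustment, 0.393% of 1019 features tested in treated hindlimb passed an adjusted p under 0.05. Because this comparison helped to choose the gene, nothing is read from these shares.

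The separation of Ftl1 was a property of the averaged probes and not of either probe alone. Probe 691 ran from 0.62 to 1.71 in treated mdx hindlimb and from 0.10 to 1.66 in BL10, where its 12-week array was the highest. Probe 1156 ran from 0.95 to 2.14 in mdx and from 0.11 to 0.99 in BL10. Both probes had a higher mean in mdx, by 0.67 for probe 691 and by 1.10 for probe 1156, and both had mdx and BL10 arrays that overlapped. Setting mdx against BL10 at the same age, the difference of Ftl1 was 1.51 at 3 weeks, 0.82 at 5, 1.10 at 9 and 0.11 at 12 weeks, so the strains were closest at 12 weeks, where BL10 had its highest value.

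In treated diaphragm Ftl1 was 0.10, 0.83, 0.44 and 0.38 in mdx and -0.31, 0.61, -0.23 and -0.43 in BL10 at 3, 5, 9 and 12 weeks. The mdx array was the higher one at 4 of 4 ages, and the groups overlapped, since the BL10 array at 5 weeks lay above 3 of the mdx arrays. The fitted difference was 0.53 ± 0.24 (SE), a description, as for all 4 genes in this comparison, in which limma called 0% of the 1019 features (27 had an unadjusted p under 0.05). Of all features' differences, 95.2% were lower, and their median was 0.0045. Nothing is read from that share, as this comparison helped to choose the gene. The mdx array at 5 weeks had a value from 1 probe only, as the other was below 0. With ratios of 0 or below set to the lowest positive value of the data, the difference of Ftl1 was -0.28.

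In untreated hindlimb Ftl1 was 0.21, 0.19 and 0.23 in mdx at 3, 5 and 9 weeks, and 1.01 and 0.0082 on its 12-week arrays. BL10 arrays gave -1.12, 0.014, -0.17 and -0.23. The mdx array was higher at 4 of 4 ages, taking the mean of both 12-week arrays, while the groups overlapped at 1 array each: the second 12-week mdx array lay below the 5-week BL10 array. The 12-week BL10 array had a value from 1 probe only, as the other was below 0. The difference was 0.67 ± 0.27 (SE), with an adjusted p of 0.418 by limma. Here 0.0986% of the 1014 features tested were called, which is 1 feature, and 120 had an unadjusted p under 0.05. Of all features' differences 63.2% were positive, with a median of 0.15. The BL10 arrays at 3 and 12 weeks had median log2 ratios over all probes of -0.22 and -0.27. Without both untreated BL10 arrays at 3 weeks the difference of Ftl1 was 0.46, and with ratios of 0 or below set to the lowest positive value it was 1.57 (limma, adjusted p = 0.223).

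In untreated diaphragm the values of Ftl1 were 0.24, -0.067, 0.17, 0.78 and 0.43 in mdx and 0.011, 0.023, 0.39 and -0.22 in BL10. The 2 highest were both mdx at 12 weeks. The strain difference of 0.23 ± 0.27 (SE) was smaller than its error (limma, adjusted p = 0.847; 0% of 1014 features called, 100 at an unadjusted p under 0.05).

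The order of the treated group means of Ftl1 was mdx hindlimb, BL10 hindlimb at 0.55, mdx diaphragm at 0.44 ± 0.30 (SD, n = 4) and BL10 diaphragm at -0.09 ± 0.47 (SD, n = 4). The BL10 hindlimb and mdx diaphragm arrays overlapped over most of their range, 0.10 to 1.06 and 0.10 to 0.83. Over both strains, treated hindlimb exceeded treated diaphragm by 0.81 ± 0.17 (SE), again a description; 4.02% of the 1019 features were called in that comparison. The 4 liver and the 4 fibroblast markers measured were positive in this comparison too, with medians of 0.86 and 0.46 against 0.13 over all features; Serpina1a, a liver protease inhibitor, at 1.42 and Fmod, the matrix protein fibromodulin, at 0.92 were called (limma, adjusted p = 0.045 each). Of the macrophage markers measured, 2 of 4 were positive, with a median of 0.09, and of the muscle fibre markers 6 of 9, with a median of 0.04. The part of all these markers in the value of Ftl1 was not tested. In untreated muscle the hindlimb minus diaphragm difference of Ftl1 was -0.21 ± 0.19 (SE; limma, adjusted p = 0.716; 0% of 1014 features called, 104 at an unadjusted p under 0.05). The untreated order of Ftl1, from 0.33 in mdx hindlimb through 0.31 in mdx diaphragm and 0.052 in BL10 diaphragm to -0.38 in BL10 hindlimb, had every step within the larger SD of the neighbours, which ran from 0.25 to 0.51.

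Treated against untreated muscle, Ftl1 differed by 1.12 ± 0.25 (SE) in mdx hindlimb and by 0.92 ± 0.26 (SE) in BL10 hindlimb, both given as a description beside the 3.01% and 4.27% of 632 genes called there. The median of all 632 genes was 0.22 and 0.24 in those comparisons. Against 27 genes called in BL10 hindlimb, 9 were called without its untreated array at 3 weeks, 54 without that at 5, 63 without that at 9 and 12 without that at 12 weeks, and 17 without its treated array at 12 weeks. The 4 fibroblast markers were positive in both, with medians of 1.25 in mdx and 1.02 in BL10. Of the 4 macrophage markers measured, 4 were positive in mdx, with a median of 0.83, and 2 in BL10, with a median of -0.20. Limma called Col1a2, a collagen chain, at 1.28 (adjusted p = 0.018) and Fmod at 1.48 (adjusted p = 0.013) in mdx, and Fmod at 1.77 (adjusted p = 0.00098) in BL10. The muscle fibre markers Mylpf, a myosin light chain, at 1.89 (limma, adjusted p = 0.044) and Tnni2, a troponin subunit, at 1.17 (limma, adjusted p = 0.019) were also called in BL10. Of the 9 muscle fibre markers measured, 6 were positive there, beside 71.0% of all genes. Ckm at -0.26, Mb at -0.065 and Myh1 at -0.055 were below 0. The part of the fibroblast, macrophage and muscle fibre markers in the values of Ftl1 was not tested. With each array centred on its median the values of Ftl1 in mdx and BL10 hindlimb were 1.01 and 0.76, and with quantile normalisation 0.62 and 0.66. In diaphragm the corresponding differences of Ftl1 were 0.14 ± 0.25 (SE; limma, adjusted p = 0.936) in mdx and -0.14 ± 0.26 (SE; limma, adjusted p = 0.937) in BL10, where 0.633% and 0% of the 632 genes were called (49 at an unadjusted p under 0.05 in BL10).

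**Figure D2:**
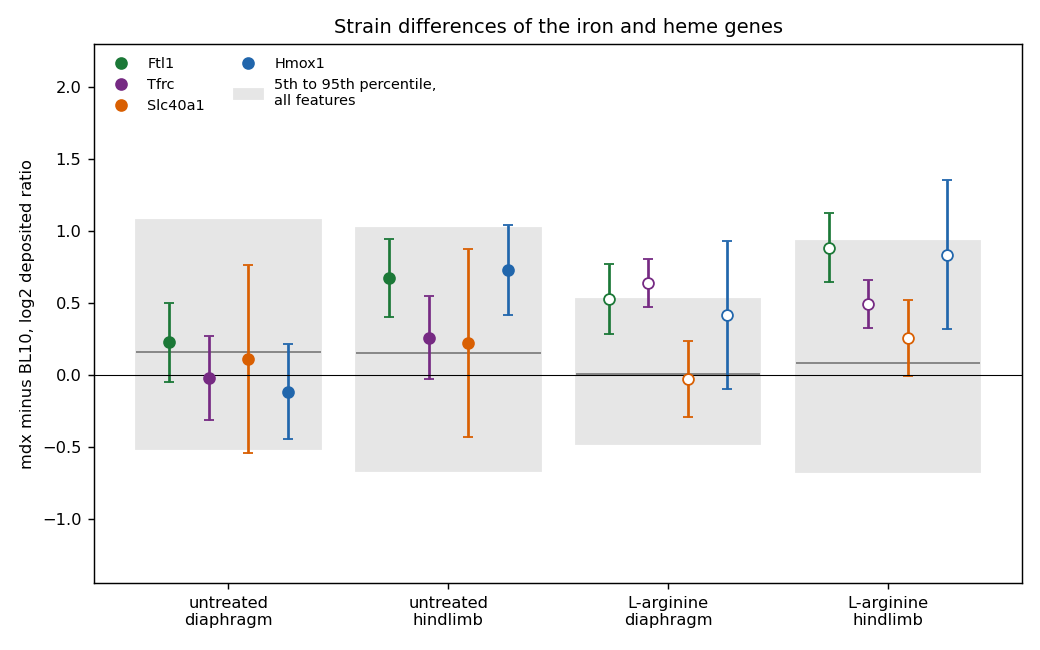
The mdx minus BL10 difference in log2 deposited ratio (vertical axis) for the 4 genes in untreated and L-arginine-treated diaphragm and hindlimb, as fitted value ± SE; open symbols mark the 2 treated comparisons, which helped to choose the genes. Grey boxes span the 5th to 95th percentile of all features, with a line at the median. In treated diaphragm Tfrc at 0.64 stands above its box, which ends at 0.53, and Ftl1 at 0.53 lies at that edge.

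Tfrc encodes the receptor that carries transferrin-bound iron into the cell. In treated diaphragm its log2 ratio was 0.84, 0.75, 0.78 and 0.66 in mdx at 3, 5, 9 and 12 weeks. In BL10 it was 0.70, -0.033, 0.0020 and -0.20. The mdx arrays lay close together, and only the BL10 array at 3 weeks reached them, above the 12-week mdx array. The difference was 0.64 ± 0.17 (SE), a 1.56-fold larger ratio in mdx, above 96.8% of all features' differences, and is a description. Because this comparison helped to choose the gene, nothing is read from that rank.

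The spread between the 2 probes of Tfrc was large in the same muscle. Probe 299 was 1.04, 1.04, 1.06 and 1.16 in treated mdx diaphragm and 0.48, -0.14, 0.12 and 0.58 in BL10, with no overlap. Probe 938 was 0.64, 0.46, 0.50 and 0.15 in mdx and 0.93, 0.07, -0.12 and -0.97 in BL10, with the highest value on a BL10 array. Fitted alone, probe 299 differed by 0.82 and probe 938 by 0.46.

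In treated hindlimb Tfrc was 0.62, 0.71, 0.42 and 0.39 in mdx and 0.54, 0.18, -0.22 and -0.33 in BL10. The mdx array was higher at 4 of 4 ages, by 0.078 at 3 weeks and by 0.72 at 12 weeks, and the groups overlapped through the 3-week BL10 array. The difference of 0.49 ± 0.17 (SE) is a description; it came from probe 299, at 0.94, and not from probe 938, at 0.042. The difference between hindlimb and diaphragm in this strain comparison was -0.15 ± 0.24 (SE) for Tfrc and 0.36 ± 0.34 (SE) for Ftl1, beside 0% of 1019 features called (66 at an unadjusted p under 0.05).

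In both treated BL10 muscles the 3-week array was the highest for Tfrc, and in treated mdx hindlimb the 9- and 12-week arrays were the lowest. Over all treated groups the 3-week arrays were 0.55 ± 0.17 (SE) above the 12-week arrays, the 5-week arrays 0.27 ± 0.17 (SE) and the 9-week arrays 0.12 ± 0.17 (SE). The moderated F test of age by limma gave unadjusted p = 0.035 and adjusted p = 0.710, beside 0% of 1019 features called and 57 at an unadjusted p under 0.05. This F test uses the treated arrays of the comparisons that helped to choose the genes.

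In untreated muscle the 3-week array was the highest for Tfrc in BL10 diaphragm and the lowest in BL10 hindlimb and mdx diaphragm. In diaphragm it was -0.20, -0.05, 0.31, 0.67 and -0.06 in mdx and 0.75, 0.07, -0.25 and -0.05 in BL10; in hindlimb it was 0.19, 0.30, 0.12, 0.43 and 0.14 in mdx and -0.83, 0.27, -0.08 and 0.44 in BL10. The lowest value was that of the BL10 hindlimb array at 3 weeks, one of those with the most missing values. The strain difference was -0.02 ± 0.29 (SE; limma, adjusted p = 0.991) in diaphragm and 0.26 ± 0.29 (SE; limma, adjusted p = 0.760) in hindlimb. The untreated group means lay between -0.05 and 0.23, and the spread within groups, with SDs of 0.13 to 0.56, was wider than the steps between them.

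Treated against untreated mdx diaphragm, Tfrc differed by 0.62 ± 0.25 (SE; limma, unadjusted p = 0.020, adjusted p = 0.302, and 0.058 to 0.590 over the alternatives). In that comparison 0.633% of 632 genes were called, and 76 had an unadjusted p under 0.05. Its treated arrays also enter a comparison that helped to choose the genes, so these p-values are not independent of that choice. In BL10 diaphragm the difference was -0.01 ± 0.26 (SE; limma, adjusted p = 0.994), and in BL10 hindlimb 0.09 ± 0.26 (SE; limma, adjusted p = 0.881). In mdx hindlimb the value was 0.30 ± 0.25 (SE), a description, and -0.026 with quantile normalisation.

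Slc40a1 encodes ferroportin. Treated mdx hindlimb arrays were at -0.31, 0.019, 0.018 and 0.041 at 3, 5, 9 and 12 weeks, and BL10 arrays at -0.82, -0.06, -0.18 and -0.19. In treated diaphragm the values were 0.93, -0.045, -0.23 and -0.044 in mdx and -0.06, 0.13, 0.31 and 0.36 in BL10. From 5 weeks on, every treated value lay between -0.23 and 0.36, and the 3-week array stood furthest from the rest of its group in all 4 treated groups, high in mdx diaphragm and low in the other three. The strain difference, a description in both muscles, was -0.03 ± 0.26 (SE) in treated diaphragm and 0.25 ± 0.26 (SE) in treated hindlimb.

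The untreated BL10 arrays at 3 weeks held the lowest values of any gene here: -2.47 in diaphragm, from probe 85 alone, and -3.47 in hindlimb, from probe 387 alone, the other probe being below 0 each time. The later BL10 arrays were 0.32, 0.67 and 0.70 in diaphragm and 0.60, 0.28 and 0.83 in hindlimb at 5, 9 and 12 weeks. The mdx arrays were 0.37, 0.74, -0.13, -0.77 and -0.43 in diaphragm and -0.23, -0.33, -0.0018, -0.68 and 0.34 in hindlimb. From 5 weeks on, the BL10 array was above the mdx array of the same age in hindlimb at 3 of 3 ages and in diaphragm at 2 of 3, by 0.28 to 1.30; at 3 weeks it was below, by 2.84 and 3.25.

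The mean strain differences of Slc40a1 in untreated muscle rested on those 3-week arrays. They were 0.11 ± 0.65 (SE; limma, adjusted p = 0.988) in diaphragm and 0.22 ± 0.65 (SE; limma, adjusted p = 0.919) in hindlimb with all arrays. Without both 3-week BL10 arrays they were -0.63 (limma, adjusted p = 0.806) and -0.77 (limma, adjusted p = 0.604). Over all untreated groups, the 3-week arrays differed from the 12-week arrays by -1.42 ± 0.63 (SE), and the limma F test of age had an adjusted p of 0.899, beside 0% of 1014 features called and 47 at an unadjusted p under 0.05. Without both arrays that adjusted p was 0.992. In treated muscle the F test gave an adjusted p of 0.999 by limma.

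Treated hindlimb differed from treated diaphragm by -0.36 ± 0.19 (SE) for Slc40a1 (limma, adjusted p = 0.257), with -0.71 for probe 128 and -3.0e-05 for probe 927. In untreated muscle the difference was -0.19 ± 0.46 (SE; limma, adjusted p = 0.895). Treated against untreated, its differences were 0.38 ± 0.59 (SE; limma, adjusted p = 0.931) in BL10 diaphragm, 0.23 ± 0.56 (SE; limma, adjusted p = 0.936) in mdx diaphragm, 0.13 ± 0.59 (SE; limma, adjusted p = 0.922) in BL10 hindlimb and, as a description, 0.15 ± 0.56 (SE) in mdx hindlimb. All were below their errors.

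Hmox1 was read by 1 probe. In treated mdx hindlimb its log2 ratio was -0.76, 1.81, 0.91 and 0.59 at 3, 5, 9 and 12 weeks, and in BL10 hindlimb -1.22, 0.28, -0.15 and 0.31. The mdx array was higher at 4 of 4 ages, by 0.28 to 1.54, while the 3-week array was the lowest in both strains and made the groups overlap. The mdx mean was 0.64 ± 1.07 (SD, n = 4), the BL10 mean -0.20 ± 0.71 (SD, n = 4), and the difference of 0.83 ± 0.52 (SE) is a description.

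In treated diaphragm Hmox1 was 0.61, 0.12, -0.29 and -0.18 in mdx and 0.31, -1.15, -0.23 and -0.32 in BL10. The 5-week BL10 array lay far below the others, and the strains differed by 1.28 at that age against 0.30, -0.05 and 0.14 at 3, 9 and 12 weeks. The fitted difference of 0.42 ± 0.52 (SE) is a description.

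In untreated hindlimb Hmox1 was 0.96, 0.29, -0.07, -1.12 and -0.43 in mdx and -0.97, -0.54, -0.20 and -1.06 in BL10. All 4 BL10 arrays were below 0, and the mdx array was higher at 4 of 4 ages, by 1.93 at 3 weeks and 0.13 at 9 weeks. In this comparison 63.2% of all features had a positive difference, with a median of 0.15. The BL10 arrays at 3 and 12 weeks had medians over all probes of -0.22 and -0.27. The difference of Hmox1, 0.73 ± 0.31 (SE), did not pass the test (limma, unadjusted p = 0.036, adjusted p = 0.420). It was 0.37 without both BL10 arrays at 3 weeks. In untreated diaphragm both 3-week arrays had a ratio below 0 and no log value; the others were 0.74, -0.09, -0.62 and -0.25 in mdx and 0.51, -0.014 and 0.043 in BL10, a difference of -0.12 ± 0.33 (SE; limma, adjusted p = 0.949).

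By age, the fitted values of Hmox1 over all untreated groups were 0.89 ± 0.39 (SE) above 12 weeks at 3 weeks, where only hindlimb arrays had a value, 0.87 ± 0.29 (SE) at 5 weeks and 0.53 ± 0.29 (SE) at 9 weeks. The limma F test of age gave unadjusted p = 0.049 and adjusted p = 0.899. On treated arrays the value at 3 weeks against 12 was -0.36 ± 0.52 (SE), and the limma F test gave adjusted p = 0.954. Whether the age pattern differed between treated and untreated arrays was not tested. Untreated hindlimb differed from untreated diaphragm by -0.55 ± 0.23 (SE; limma, unadjusted p = 0.029, adjusted p = 0.475); with ratios of 0 or below set to the lowest positive value it was 1.07. The same difference in treated muscle was 0.36 ± 0.37 (SE; limma, adjusted p = 0.558). Treated against untreated, Hmox1 differed by 0.66 ± 0.42 (SE) in mdx hindlimb, a description, by 0.50 ± 0.45 (SE; limma, adjusted p = 0.561) in BL10 hindlimb, by 0.08 ± 0.44 (SE; limma, adjusted p = 0.963) in mdx diaphragm and by -0.50 ± 0.47 (SE; limma, adjusted p = 0.860) in BL10 diaphragm.

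**Figure D3:**
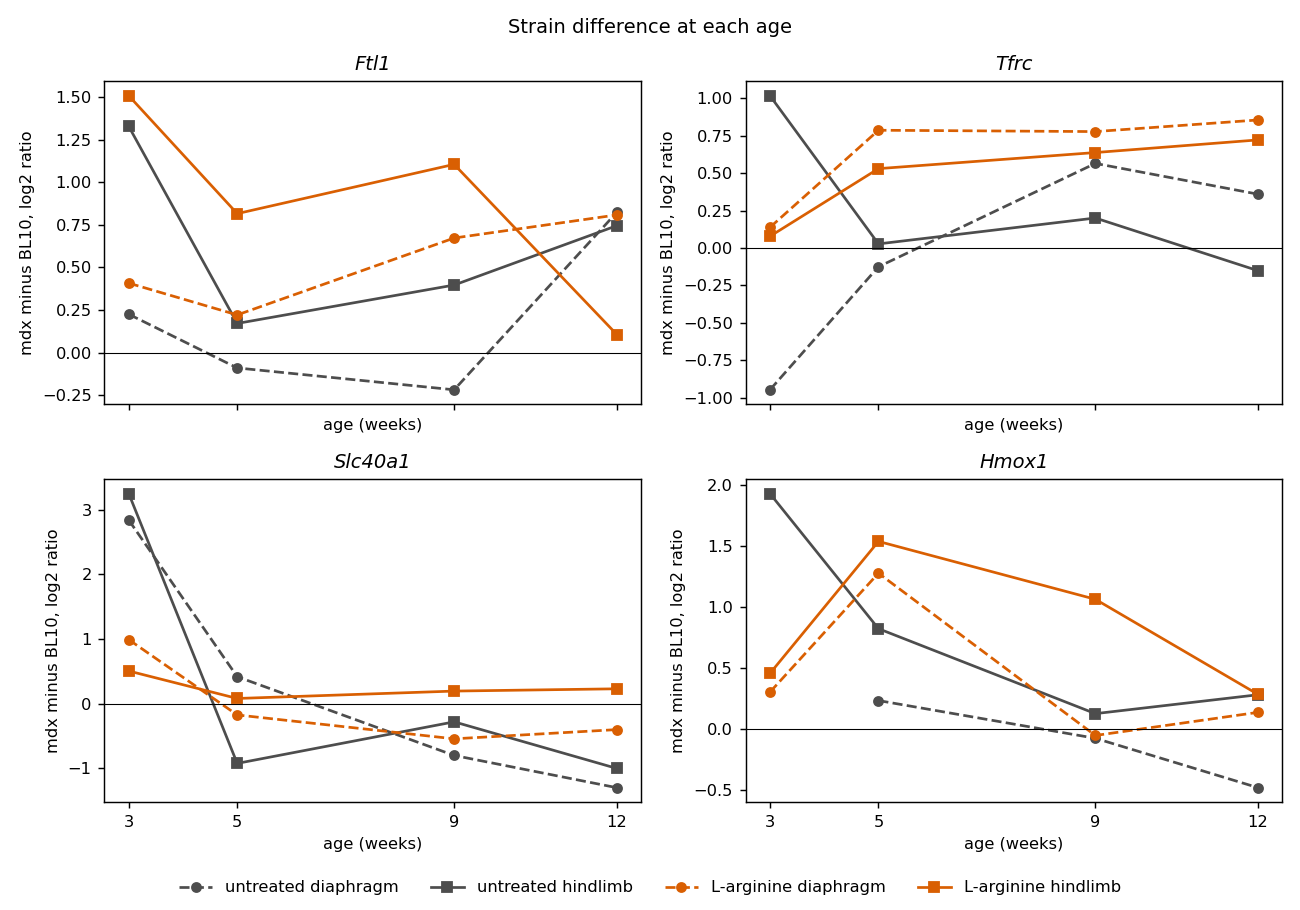
The mdx minus BL10 difference in log2 deposited ratio (vertical axis) against age in weeks (horizontal axis) for each gene, with 1 line per muscle and treatment; untreated mdx at 12 weeks is the mean of 2 arrays, every other strain and age is 1 array, and Hmox1 has no point for untreated diaphragm at 3 weeks. Lines are averages over the probes of a gene. The treated lines of Ftl1 and Tfrc stay above 0 at all 4 ages in both muscles, and those of Slc40a1 in untreated muscle start at 2.84 and 3.25.

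Counted by age on the gene averages, treated mdx exceeded treated BL10 in hindlimb at 4 of 4 ages for each of the 4 genes. In treated diaphragm it did so at 4 of 4 ages for Ftl1 and Tfrc, at 3 of 4 for Hmox1 and at 1 of 4 for Slc40a1. In untreated hindlimb the count was 4 of 4 for Ftl1 and Hmox1, 3 of 4 for Tfrc and 1 of 4 for Slc40a1. In untreated diaphragm it was 2 of 4 for Ftl1, Tfrc and Slc40a1 and 1 of 3 for Hmox1. Single probes did not all follow. In treated hindlimb mdx was below BL10 for Ftl1 probe 691 at 12 weeks (1.38 against 1.66). The same held there for Tfrc probe 938 at 3 and 9 weeks and for Slc40a1 probe 128 at 5 and 9 weeks. In treated diaphragm Tfrc probe 938 was at 0.64 in mdx and 0.93 in BL10 at 3 weeks. The 12-week arrays are in the counts above, though both their channels name 12-week RNA of the strain. At 12 weeks the treated differences in diaphragm and hindlimb were 0.81 and 0.11 for Ftl1 and 0.86 and 0.72 for Tfrc. Those of Tfrc were its largest of the 4 ages. For Slc40a1 they were -0.40 and 0.23, and for Hmox1 0.14 and 0.28. The share of all features with such counts is not given here. Both treated comparisons helped to choose the genes. Of the 34 values of the 4 genes that were tested by limma, 0 passed an adjusted p under 0.05, and 6 had an unadjusted p under 0.05. In the comparisons that held these 6, the features under that unadjusted level numbered 120, 104 and 47 of 1014, 57 of 1019 and 76 of 632. The 34 values share arrays and are not independent of each other.

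**Figure D4:**
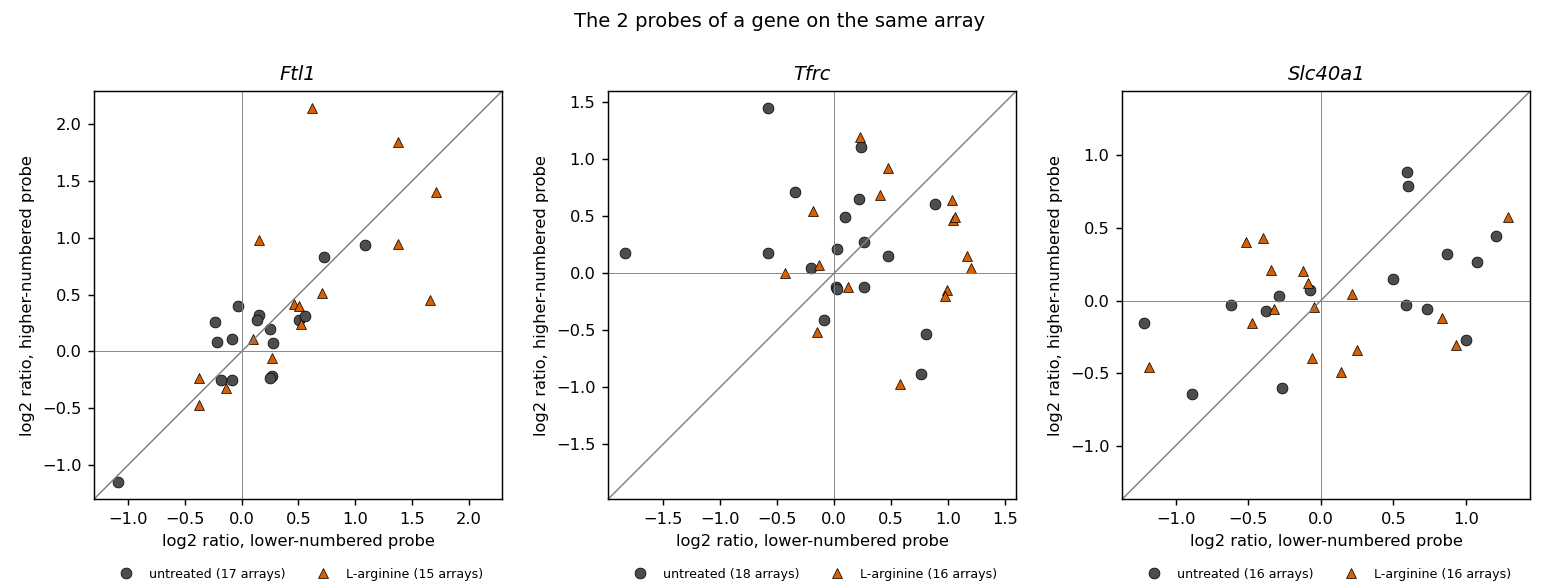
The log2 deposited ratio of the higher-numbered probe (vertical axis) against that of the lower-numbered probe (horizontal axis) on the same array, for the 3 genes with 2 probes; 1 point is 1 array, and the diagonal marks equal values. The median distance between the probes of Ftl1 was 0.20 on untreated and 0.29 on treated arrays, and the largest was 0.50 and 1.52; the largest of Tfrc was 2.03 and 1.55.

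The 2 probes of a gene often disagreed on the side of 0. Ftl1 probes fell on the same side of 0 on 11 of 17 untreated arrays and on 14 of 15 treated arrays. Slc40a1 probes did so on 11 of 16 and on 7 of 16 arrays, and Tfrc probes on 8 of 18 and on 9 of 16. The median distance between the probes was 0.39 for Tfrc and 0.45 for Slc40a1 on untreated arrays, and 0.57 for both on treated arrays.

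Among the genes of iron handling, heme and the oxidative stress response, 9 of a list of 88 were measured. Beside the 4 above these were Ncoa4, which carries ferritin to the lysosome, Ireb2, an iron-sensing RNA-binding protein, Nfe2l1, a transcription factor of stress genes, Mb, myoglobin, and Cycs, cytochrome c. In treated hindlimb 5 of the 9 had a positive mdx minus BL10 difference, beside 58.3% of all features. Their median was 0.05 against 0.08 over all features. In treated diaphragm 4 of 9 were positive, beside 50.8% of all features, with a median of -0.03 against 0.0045. The 4 genes above, which these comparisons helped to choose, belong to the 9 in both counts. In hindlimb all 4 were positive, and of the others only Nfe2l1 was, at 0.045. Nothing is read from these treated counts and medians. In both untreated muscles the medians were 0.11 in diaphragm and 0.22 in hindlimb, against 0.16 and 0.15 over all features. The heavy ferritin chain gene and the globin genes are among those not analysed here.

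In treated hindlimb, where Ftl1 had its largest ratios in mdx, Ncoa4 differed between strains by -0.47 ± 0.22 (SE; limma, adjusted p = 0.292), Mb by -0.43 ± 0.16 (SE; limma, adjusted p = 0.199), Cycs by -0.37 ± 0.19 (SE; limma, adjusted p = 0.323) and Ireb2 by -0.30 ± 0.14 (SE; limma, adjusted p = 0.279). None of these 4 passed the test. Nfe2l1 was at 0.045 ± 0.24 (SE; limma, adjusted p = 0.941) there. In untreated hindlimb and diaphragm the strain difference was 1.35 and 1.08 for Ireb2, 0.078 and 0.56 for Ncoa4, and 0.065 and 0.20 for Mb. For Cycs it was -0.46 and -0.039. None of these passed either. Treated hindlimb differed from treated diaphragm by 0.53 ± 0.16 (SE) for Ncoa4 (limma, adjusted p = 0.079), and for Mb by -0.36 ± 0.11 (SE; limma, adjusted p = 0.094).

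Apart from Ftl1 in the comparisons that helped to choose it, Nfe2l1 was the only 1 of the 9 that passed a test, lower each time, and its calls rested on 2 arrays. In untreated BL10 hindlimb it was 2.46 at 9 weeks and 2.92 at 12 weeks, the latter on the array with 128 ratios of 0 or below, with no value at 3 and 5 weeks, and in mdx it was -0.34, -0.30, -0.29, -0.38 and 1.29. The difference was -2.62 ± 0.37 (SE; limma, adjusted p = 0.0087), and 0 features were called there without the 12-week BL10 array or without the 9-week mdx array. Its 1 probe read between -0.56 and 0.24 in untreated diaphragm of both strains. It was also called lower in treated than in untreated BL10 hindlimb, by a difference of -2.86 ± 0.37 (SE; limma, adjusted p = 2.6e-05), which uses the same 2 arrays.

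Of 19 macrophage markers 4 were measured, Lyz2 (lysozyme), C1qb (a complement subunit), Cd68 and Gpnmb, both of the lysosomal membrane. Their mean log2 ratio per array ran from 0.99 to 1.32 in treated mdx hindlimb and from -0.39 to 0.36 in BL10, and from 0.75 to 1.04 in treated mdx diaphragm and 0.02 to 0.57 in BL10. In untreated muscle it ran from 0.14 to 1.16 in mdx hindlimb, -0.64 to 0.49 in BL10 hindlimb, -0.34 to 1.31 in mdx diaphragm and -0.41 to 0.12 in BL10 diaphragm. The 4 markers did not move together there. The untreated mdx minus BL10 difference of Cd68 was -0.73 in hindlimb and -0.34 in diaphragm. Those of the other 3 were positive, from 0.36 to 0.55 in hindlimb and from 0.34 to 0.81 in diaphragm, and 0 of the 4 passed in either muscle. In treated hindlimb Lyz2 was called higher in mdx, by 1.97 ± 0.28 (SE; limma, adjusted p = 0.0070). The differences of C1qb at 0.93, Gpnmb at 1.04 and Cd68 at 1.00 did not pass there (limma, adjusted p = 0.0501, 0.123 and 0.223). In treated diaphragm the 4 differences ran from 0.36 to 0.79, and none passed (limma, adjusted p = 0.998 each). The part of these markers in the values of the iron and heme genes was not tested.

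Other marker lists were less complete. None of 10 erythroid markers was measured, so blood in the samples could not be looked at. The 9 of 12 skeletal muscle fibre markers measured had a mean log2 ratio between -0.17 and 0.24 on every treated array. The 4 of 9 fibroblast markers ran from 1.03 to 1.91 in treated mdx hindlimb against 0.59 to 1.29 in BL10, and from 0.85 to 1.36 in treated mdx diaphragm against 0.04 to 0.60 in BL10. The 4 of 6 liver markers ran from -2.48 to 0.57 in treated BL10 diaphragm and from -1.32 to 0.10 in mdx, and in treated hindlimb from -0.10 to 0.32 in BL10 and from -0.28 to 0.82 in mdx. A ratio to the same tissue cannot show whether a marker is present at a high level, so the labelled tissue could not be checked this way.

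The genes whose pattern over the arrays was most like each of the 4 were taken from all named genes by Pearson's r over at least 28 of the 34 arrays, after the array median and the mean of each platform were subtracted. Arrays share their reference RNA and background, and the values are a description. For Ftl1 the nearest were Gabarap, a gene of autophagosome formation, with r = 0.68, Lamp1, a lysosomal membrane protein, with r = 0.64, and Ssc5d with r = 0.63, each over 34 arrays. For Tfrc they were Igf2, insulin-like growth factor 2, with r = 0.67, Dync1i2, a dynein subunit, with r = 0.63 over 33 arrays, and Ptgfrn with r = 0.62. For Hmox1 they were Smim13 with r = 0.63 over 32 arrays, Des, the muscle filament desmin, with r = 0.63 over 29, and Tmem259 with r = 0.57 over 32. For Slc40a1 they were Ercc1, a DNA repair gene, with r = 0.85, 1110003O08Rik with r = 0.81 and Abra with r = 0.72. Without both untreated BL10 arrays at 3 weeks these last were 0.55, 0.52 and 0.47, while those of the other genes stayed between 0.54 and 0.68.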

How the data were processed

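Total RNA was read on 2-colour arrays of 1200 probes, with 1 platform for untreated and 1 for L-arginine-treated mice. Values are ratios of the channels as the authors deposited them; no label or header read here names their background correction, normalisation or scanner. Of the 1200 probes on each platform, 812 had 1 gene symbol in the platform annotation, 99 several and 289 none listed. Ratios above 0 were taken to log2, probes of 1 gene were averaged, and features with a value on at least 75% of a platform's arrays were kept. limma 3.58.1 in R 4.3.3 was fitted per platform with group and age as terms, and over both platforms for treated against untreated. eBayes and Benjamini-Hochberg adjustment at 0.05 were used. The fit was first run on simulated data, and the share of simulated shifts it found is not given here. No 2 arrays shared more than 2.6% of their values. The lowest rank correlation between arrays of 1 strain was -0.16, and between strains -0.41. The 4 genes were named whatever their test; of the list, those that passed one, and for likeness the nearest 3. The genes, lists and comparisons were chosen with earlier results of these data known.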

Additional observations from a re-analysis of the deposited data

Results flagged for a closer look

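Of 31 groups of 4 or 5 arrays, 1 gene at a time, 6 held an array further from its group than Dixon's test allows at 95%. Chance alone would give about 1 in 20 if the arrays of a group were replicates. They are of different ages, and the genes were read on the same arrays, so that rate need not hold here. Ftl1 in untreated mdx hindlimb was 1.01 on the first 12-week array against 0.01 to 0.23 on the others. The other 5 were all Slc40a1 at 3 weeks. It was -2.47 in untreated BL10 diaphragm against 0.32 to 0.70, and -3.47 in untreated BL10 hindlimb against 0.28 to 0.83, each from 1 probe. In treated muscle it was 0.93 in mdx diaphragm against -0.23 to -0.04, -0.82 in BL10 hindlimb against -0.19 to -0.06, and -0.31 in mdx hindlimb against 0.02 to 0.04.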

How the results depend on the processing

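Of 1587 values of the 4 genes under alternatives, 1056 were tested and none passed; 79 of the 1394 with a direction changed sign. A value below its own SE (24 of 44) has no direction to lose; the other reversals were, with quantile normalisation, Ftl1 between untreated muscles at 0.016 and Tfrc treated against untreated in mdx hindlimb at -0.026, and, with ratios of 0 or below set to the lowest positive value, Hmox1 between untreated muscles at 1.07, Ftl1 between treated strains in diaphragm at -0.28, and Hmox1 treated against untreated in BL10 diaphragm at 1.18. The cause was not tested.

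Counts of all features called moved more. Fitting each probe on its own called 21 in the treated hindlimb strain comparison, against 4. Array median centring called 1 between untreated muscles, 1 between treated strains in diaphragm, 22 between treated muscles (9 higher, 13 lower, against 28 and 13), and treated against untreated 13 in BL10 hindlimb (7 higher, against 21 of 27) and 10 in mdx hindlimb (6 higher, against 16 of 19). It brought the median difference of treated against untreated BL10 hindlimb from 0.24 to 0.086. Quantile normalisation called 1 between untreated strains in diaphragm, 2 in hindlimb, 1 between untreated muscles, 1 and 0 between treated strains in diaphragm and hindlimb, 41 between treated muscles (22 higher), and treated against untreated 19 and 9 in BL10 and mdx diaphragm (14 and 5 higher) and 15 and 2 in BL10 and mdx hindlimb (9 and 0 higher). Requiring a value on every array called 0 between untreated strains in hindlimb, 1 and 15 between treated strains in diaphragm and hindlimb, and 0 treated against untreated in mdx diaphragm. Setting ratios of 0 or below to the lowest positive value called 0 between untreated strains in hindlimb, 13 between treated muscles, 1 for treated age, and treated against untreated 0 in mdx diaphragm, 64 in BL10 hindlimb and 3 in mdx hindlimb. Without the age term there were 1 between untreated muscles, 9 between treated strains in hindlimb, 16 between treated muscles and 1 treated against untreated in BL10 diaphragm. Without the 12-week arrays there were 2 and 0 between untreated strains in diaphragm and hindlimb, 1 between untreated muscles, 1 between treated strains in hindlimb, 7 between treated muscles, and treated against untreated 14 in mdx diaphragm, 3 in BL10 hindlimb and 10 in mdx hindlimb. Without both untreated BL10 arrays at 3 weeks, chosen after seeing the data, 10 were called treated against untreated in BL10 hindlimb.

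Leaving out 1 array in turn, calls ran from 0 to 1 between untreated strains in diaphragm and 0 to 6 in hindlimb, 0 to 1 between untreated muscles, 0 to 5 for untreated age, 0 to 1 and 1 to 18 between treated strains in diaphragm and hindlimb, 10 to 52 between treated muscles, and treated against untreated 0 to 1 and 0 to 23 in BL10 and mdx diaphragm and 9 to 63 and 0 to 28 in BL10 and mdx hindlimb. No analysis paired by animal was possible because the labels do not state which arrays came from the same animal. Arrays of 1 age were matched by the age term, and the fit without that term is given above. With 1 array per strain, muscle and age, the number of arrays limits the precision.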
